A study of Mus musculus with 7 samples.

Results

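The enzymes of mitochondrial fatty acid oxidation were examined in epididymal white adipose tissue of male mice, a visceral fat pad that lies beside the epididymis. They are Cpt1a, Cpt2, Slc25a20, Acads, Acadm, Acadl, Acadvl, Hadha, Hadhb and Etfdh. Each gene was found by its symbol among probe sets that the platform annotation pairs with exactly 1 gene symbol, and was read by its probe set of highest mean. All 10 were measured, of 19938 genes on the array that could be named in this way. The samples were 3 aP2-XBP1 transgenic and 4 wild type fat pads, and 1 array was hybridised per sample. The transgenic mice overexpressed XBP1 in adipose tissue under the aP2 promoter on a C57Bl/6J background, and the controls were C57Bl/6J wild type mice. All animals were 17 weeks old, male and fed chow. The aP2 promoter is that of Fabp4, which is active in adipocytes and also in macrophages, and the labels do not say from how many transgenic lines the animals came. Nor do they tie each replicate to an animal of its own, so the spread behind every p-value is that between samples and may hold technical spread.

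Fatty acid oxidation cuts fatty acids into acetyl-CoA inside mitochondria. Long chains enter by the carnitine shuttle, are shortened in a repeated cycle of dehydrogenation, hydration, dehydrogenation and thiolysis, and pass their electrons to the respiratory chain. Malonyl-CoA, the product of acetyl-CoA carboxylase, inhibits the entry step. White adipocytes mainly store and release fatty acids, and oxidise less of them than brown fat, heart or liver.

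Expression is given as log2 values after RMA, so a step of 1 is a doubling of the signal. A difference is transgenic minus wild type, with the standard error (SE) of the fit, and a gene was called at a Benjamini-Hochberg adjusted limma p under 0.05 over 21789 probe sets. Xbp1 checked the labels. It read 9.80 ± 0.17 (SD, n = 3) in transgenic and 9.03 ± 0.13 (SD, n = 4) in wild type fat, and its groups did not overlap. The difference was 0.77 (SE 0.11), but Xbp1 was not called, with a limma adjusted p = 0.622. Groups were apart in that direction for 3.38% of all probe sets tested.

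The libraries differed in transcripts known from tissues that adjoin the fat pad. The mean of Serpina1f, Spink8 and Defb42, genes of the epididymis, was 2.65 to 3.10 in transgenic libraries. Among wild type libraries it was 9.31, 9.38 and 10.05 in replicates 1, 3 and 4, and 2.57 in replicate 2. These 3 were taken from a list of 14 epididymal and seminal tract genes because earlier results had shown them. The whole list, with 13 measured, had 6 genes higher and 7 lower and a median difference of 0.0. Its other epididymal genes (Lcn5, Lcn8, Lcn9, Cst11, Rnase10, Adam28 and Crisp4) were dim in every library, at 2.02 to 4.14 in transgenic and 1.97 to 3.25 in wild type fat, and did not set those 3 wild type libraries apart. The mean of 10 smooth muscle markers was 6.05 to 6.58 in transgenic libraries, 6.48 in wild type replicate 2 and 8.44 to 8.95 in the other wild type libraries. Wild type replicate 2 in turn carried seminal vesicle transcripts (Svs2, Svs4 and Svs5) at a mean of 8.50, with 4.66 in transgenic replicate 3 and 2.42 to 2.63 elsewhere. The labelled tissue held its defining markers throughout, with Fabp4 at 12.30 ± 0.05 (SD, n = 3) in transgenic and 12.08 ± 0.23 (SD, n = 4) in wild type fat. In bulk tissue fewer cells of a type and less RNA per cell cannot be told apart. The enzymes and the gene lists of their pathways are therefore also given against wild type replicate 2 alone, where a lone control carries no spread of its own.

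The mean was higher in transgenic fat for 9 of the 10 enzymes, against 53.1% of all probe sets tested, and lower for Cpt1a. None was called, with limma adjusted p between 0.622 and 0.638, and the background was 0% of all probe sets tested. At an unadjusted limma p under 0.05 there were 8 enzymes with a higher transgenic mean, against 4.82% of all probe sets tested, and 1 with a lower mean, against 3.12%. For 5 enzymes every transgenic library lay above every wild type library, against 3.38% of all probe sets, and for 0 it lay below, against 2.44%. The enzymes are bright, and the dimmest of them lay above 88.4% of all probe sets by mean value. Among the 2520 probe sets at least that bright, 54.4% had a higher transgenic mean, 13.3% had an unadjusted p under 0.05 in that direction and 9.64% had groups apart in it. In the lower direction the shares were 5.83% and 5.71%. The median difference of the 10 was 0.42, against 0.01 over all probe sets tested and 0.02 over the bright ones.

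**Figure D1:**
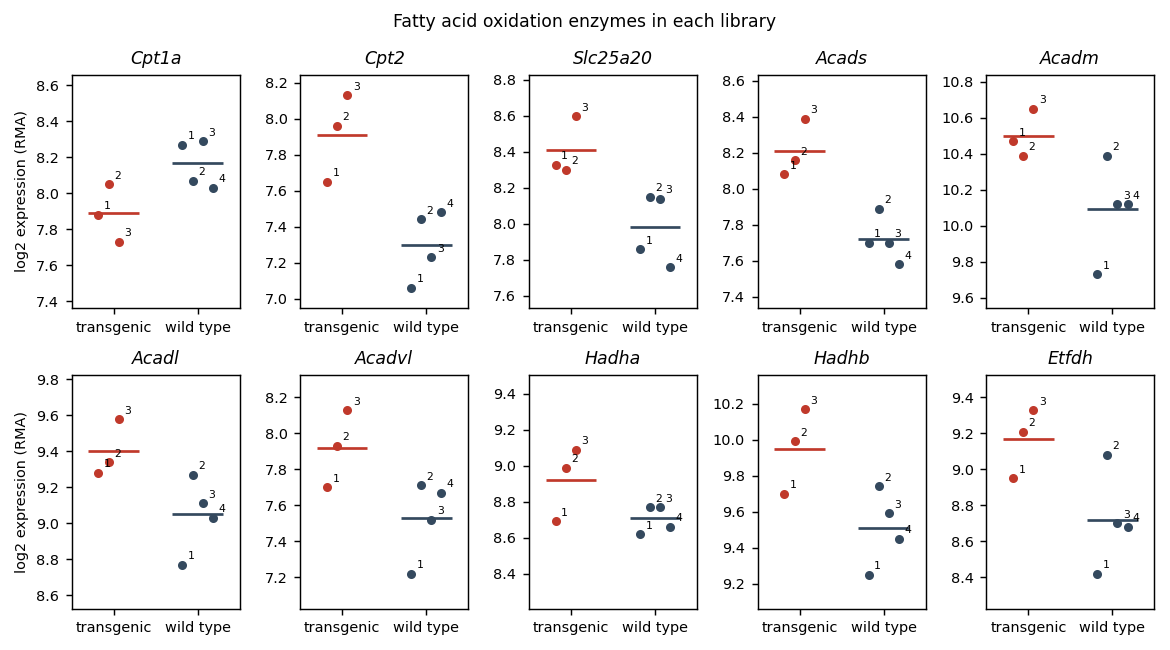
Log2 expression (RMA) of the 10 enzymes in the 3 transgenic (left, red) and 4 wild type libraries (right, dark), with replicate numbers beside the points and group means as lines. Every panel spans the same log2 range. In 9 panels the transgenic mean lies higher and in that of Cpt1a lower, and wild type replicate 2 is the highest wild type library in 8, against 27.8% of all probe sets and 47.4% of the bright ones.

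The carnitine shuttle was the step whose members differed in direction. Cpt1a (probe set 10460157), the outer membrane enzyme that commits long-chain fatty acids to oxidation and the target of malonyl-CoA, read 7.88, 8.05 and 7.73 in transgenic replicates 1 to 3. In wild type replicates 1 to 4 it read 8.27, 8.07, 8.29 and 8.03. Transgenic replicate 2 lay just above wild type replicate 4, so the groups overlapped, and all 3 transgenic libraries lay below wild type replicate 2. The difference was -0.28 (SE 0.10, 95% interval -0.53 to -0.03), or 1.21-fold lower, with a limma adjusted p = 0.622.

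Cpt2 (10514933), the inner membrane enzyme that turns acylcarnitine back into acyl-CoA, had the largest difference of the 10. It read 7.65, 7.96 and 8.13 in transgenic fat and 7.06, 7.44, 7.23 and 7.48 in wild type fat. The groups were apart by 0.173, and the difference was 0.61 (SE 0.15, 95% interval 0.25 to 0.97), 1.53-fold, with a limma adjusted p = 0.622. Slc25a20 (10589076), the carrier that exchanges acylcarnitine for carnitine across the inner membrane, read 8.33, 8.30 and 8.60 in transgenic fat. Its wild type values were 7.86, 8.15, 8.14 and 7.76, again below every transgenic library. The difference was 0.43 (SE 0.13), 1.35-fold, and its limma adjusted p was also 0.622. The intervals of Cpt1a and of these 2 partners in the shuttle did not overlap, and the difference between their changes was not tested because the pair was chosen after the values were seen.

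The acyl-CoA dehydrogenases, which start each round of the cycle and divide the work by chain length, all had a higher transgenic mean. Acads (10532926), for short chains, read 8.08, 8.16 and 8.39 in transgenic fat and 7.70, 7.89, 7.70 and 7.58 in wild type fat. Its gap between groups, 0.186, was the widest of the 10 enzymes, and its unadjusted limma p of 0.00235 was the smallest of them, at rank 53 of all probe sets. The difference was 0.49 (SE 0.10, 95% interval 0.25 to 0.74), 1.41-fold.

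Acadm (10502951), for medium chains, read 10.47, 10.39 and 10.65 in transgenic fat and 9.73, 10.39, 10.12 and 10.12 in wild type fat. Its groups were separate by only 0.003, between transgenic replicate 2 and wild type replicate 2. The difference was 0.42 (SE 0.16). Acadl (10355246), for long chains, read 9.28, 9.34 and 9.58 in transgenic fat, and 8.77, 9.27, 9.11 and 9.03 in wild type fat. Here too wild type replicate 2 came within 0.013 of the lowest transgenic library, and the difference was 0.35 (SE 0.13). Acadvl (10387768), for very long chains at the inner membrane, read 7.70, 7.93 and 8.13 in transgenic fat and 7.22, 7.71, 7.52 and 7.67 in wild type fat. Wild type replicate 2 lay above transgenic replicate 1, and the difference was 0.39 (SE 0.15). From short to very long chains the 4 differences were 0.49, 0.42, 0.35 and 0.39, and each lay inside the 95% interval of every other.

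Hadha and Hadhb encode the alpha and beta subunits of the mitochondrial trifunctional protein, which carries out the later steps of the cycle on long chains. Hadha (10528929) had the smallest difference of the 9 higher enzymes, 0.22 (SE 0.10, 95% interval -0.03 to 0.46). It read 8.69, 8.99 and 9.09 in transgenic fat and 8.62, 8.77, 8.77 and 8.66 in wild type fat, so transgenic replicate 1 lay within the wild type values. Hadhb (10474379) read 9.70, 9.99 and 10.17 in transgenic fat. In wild type fat it read 9.25, 9.74, 9.59 and 9.45, with replicate 2 above transgenic replicate 1. The difference was 0.45 (SE 0.15, 95% interval 0.08 to 0.81). A second probe set of Hadhb (10520467), with the same accessions, gave 0.42 (SE 0.15). The 2 rows of that gene did not disagree, but with shared accessions and libraries this is no separate evidence. The wild type libraries spread over 0.15 for Hadha and 0.49 for Hadhb, and the intervals of the 2 differences overlapped.

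Etfdh (10498837), the inner membrane oxidoreductase that hands electrons from these dehydrogenases to ubiquinone, read 8.95, 9.21 and 9.33 in transgenic fat. In wild type fat it read 8.42, 9.08, 8.70 and 8.68, and replicate 2 again lay above transgenic replicate 1. The difference was 0.45 (SE 0.17). Against wild type replicate 2 alone it was 0.09, the smallest of the 10 in size.

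Exact two-sided permutation tests of the 10 enzymes gave p = 0.0286 for Cpt2, Slc25a20 and Acads, the smallest that 35 splits of 7 libraries allow. They gave 0.0571 for Acadm and Acadl, 0.114 for Hadha and 0.0857 for Cpt1a, Acadvl, Hadhb and Etfdh. These p-values are not adjusted for the 10 tests.

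**Figure D2:**
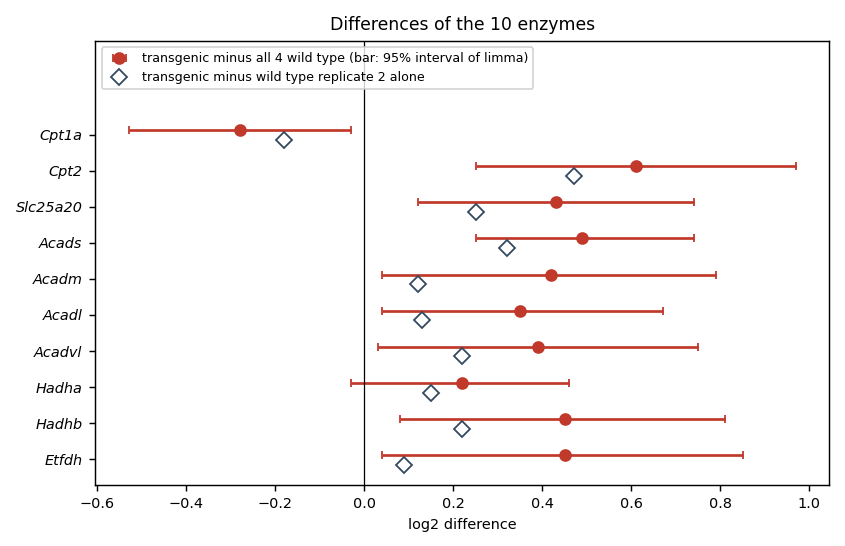
Log2 difference of each enzyme, transgenic minus all 4 wild type libraries (filled, with the 95% interval of the limma fit) and transgenic minus wild type replicate 2 alone (open, no error). Cpt1a is negative in both, and for all 10 the difference from replicate 2 alone is the smaller in size.

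Set against wild type replicate 2 alone, all 10 enzymes had the same sign and a smaller difference. The median difference was then 0.18, with 0.47 for Cpt2, 0.32 for Acads, 0.25 for Slc25a20, 0.12 for Acadm and -0.18 for Cpt1a. All 3 transgenic libraries lay above wild type replicate 2 for 5 enzymes, against 24% of all probe sets tested and 17.6% of the bright ones. With the mean of Serpina1f, Spink8 and Defb42 as a covariate the median was 0.19. That covariate takes nearly 2 levels, 1 of them shared by the transgenic libraries and wild type replicate 2, so this fit almost repeats the comparison with that library and is no separate evidence. Leaving out any 1 library moved the count of 8 enzymes at an unadjusted limma p under 0.05 to between 2 and 8. It was 2 without transgenic replicate 3, 3 without transgenic replicate 2, 4 without wild type replicate 3 or 4 and 5 without wild type replicate 1. The share of all probe sets at that threshold was not counted in these fits. The 4.82% of the main fit is no background for them.

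The start regions of the genes are shown for the 2 enzymes of smallest p and for the pair that shares 1 region. RefSeq promoter windows (GRCm38.p6) were matched for 10 of 10 enzymes, and the 250 bases before the listed start were searched on both strands. The sequences run 5′ to 3′ on the strand of the gene, and capitals mark CCACG or its reverse complement CGTGG, core letters of the ER stress element. For Cpt2 the region is chr4:107923590-107923839 on the minus strand, and for Acads it is chr5:115119347-115119596 on the minus strand. Hadha and Hadhb lie head to head, with 272 bases between their listed starts, and the region before Hadhb, chr5:30155003-30155252 on the plus strand, lies wholly in that gap.
Cpt2: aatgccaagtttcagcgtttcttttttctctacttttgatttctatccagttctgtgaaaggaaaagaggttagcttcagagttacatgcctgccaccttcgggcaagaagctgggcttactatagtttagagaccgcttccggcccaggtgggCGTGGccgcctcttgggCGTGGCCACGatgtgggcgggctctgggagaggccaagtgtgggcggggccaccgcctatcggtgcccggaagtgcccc
Acads: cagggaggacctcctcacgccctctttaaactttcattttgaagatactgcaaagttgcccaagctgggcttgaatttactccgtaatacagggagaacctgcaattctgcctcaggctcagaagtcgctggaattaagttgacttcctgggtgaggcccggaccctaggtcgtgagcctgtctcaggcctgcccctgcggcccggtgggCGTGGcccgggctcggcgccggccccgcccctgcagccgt
Hadhb: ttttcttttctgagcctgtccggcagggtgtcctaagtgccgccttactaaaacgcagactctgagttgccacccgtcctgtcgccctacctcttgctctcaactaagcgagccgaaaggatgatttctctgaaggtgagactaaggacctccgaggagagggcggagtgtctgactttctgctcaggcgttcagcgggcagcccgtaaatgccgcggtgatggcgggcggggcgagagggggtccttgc

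CCACG stood in 5 of the 10 windows (Cpt2, Acads, Slc25a20, Acadm and Acadvl), against 28.3% of the 32851 windows of all genes. In the window of Cpt2 there were 3 matches, and a pair of them adjoin without overlap. The windows of Cpt1a, Acadl, Hadha, Hadhb and Etfdh held none. A direct repeat of AGGTCA with 1 base of any kind between the copies, the element of PPAR with RXR, was in 0 of 10 windows and in 0.0335% of all. TCAAGGTCA, the element of the estrogen-related receptors, was in 0 of 10 and in 0.387% of all. TGACGTG, the core of the XBP1 element, was in 0 of 10 and in 1.65% of all. No motif overlapped another in these windows, and a match is only a run of letters.

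Other genes listed for the mitochondrial pathway were also higher, some of them by little. All 14 measured genes of 16 listed had a higher transgenic mean, 0 were called, 7 had an unadjusted limma p under 0.05 and 4 had groups apart. Their median difference was 0.26, and the smallest was 0.02 (SE 0.15) for Slc22a5, named after its value was seen. The 4 were Acad11, another acyl-CoA dehydrogenase (difference 0.65, SE 0.23), Crat, the carnitine acetyltransferase (0.42, SE 0.14), Eci1, an isomerase for unsaturated chains (0.42, SE 0.11), and Etfb (0.24, SE 0.08). Etfb is the beta subunit of the flavoprotein that feeds Etfdh. Its partner Etfa differed by 0.23 (SE 0.13) with overlapping groups. Hadh, the dehydrogenase of shorter chains, differed by 0.37 (SE 0.16) and the thiolase Acaa2 by 0.25 (SE 0.13), also with overlapping groups. Against wild type replicate 2 alone the median of the list was 0.07 and 10 of the 14 were higher. The background for the counts of this and the later lists is as follows. Over all probe sets tested, 4.82% had an unadjusted limma p under 0.05 with a higher mean, and 3.38% were apart and higher. Among the bright ones the shares were 13.3% and 9.64%. Cpt1b, the muscle form of the entry enzyme, shares its probe set with another symbol and Acsl1 was not named by the table, so neither was analysed here.

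Peroxisomal oxidation, which shortens very long chains, had 12 of 13 measured genes higher, with 0 called, 5 at an unadjusted limma p under 0.05 and a median difference of 0.36. Groups were apart for Abcd2, a peroxisomal importer of acyl-CoA (0.67, SE 0.25), Cat, catalase (0.50, SE 0.17), the bifunctional enzyme Ehhadh (0.46, SE 0.16) and the import factors Pex5 (0.39, SE 0.13) and Pex19 (0.36, SE 0.12). The gene with the lower mean was Crot, the peroxisomal carnitine octanoyltransferase, at -0.47 (SE 0.24), named here after its value was seen. Crot read 8.07 ± 0.18 (SD, n = 3) in transgenic and 8.54 ± 0.44 (SD, n = 4) in wild type fat, and its difference from wild type replicate 2 alone was 0.04. The list's median against that library was 0.05.

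Regulators gave a mixed picture. Of 16 genes, 14 had a higher transgenic mean, 0 were called, 6 had an unadjusted limma p under 0.05, and the median difference was 0.16, or 0.06 against wild type replicate 2 alone. The largest difference was that of Acaca, the cytosolic acetyl-CoA carboxylase of fatty acid synthesis, named after its value was seen. It was 1.76 (SE 0.49), 3.38-fold, with overlapping groups and a limma adjusted p of 0.622, and 0.79 against wild type replicate 2 alone. Acacb, the mitochondrial acetyl-CoA carboxylase whose malonyl-CoA restrains the entry step, differed by 1.00 (SE 0.35), 2.00-fold, and by 0.46 from wild type replicate 2 alone. Mlycd, which removes malonyl-CoA, differed by 0.35 (SE 0.15), and Prkaa1, a catalytic subunit of the kinase AMPK that inhibits acetyl-CoA carboxylase, by 0.31 (SE 0.10). Acacb, Mlycd and Prkaa1 had groups apart and a limma adjusted p between 0.622 and 0.631. Ppara, the nuclear receptor that drives these enzymes in liver, read 4.75 ± 0.07 (SD, n = 3) in transgenic and 4.71 ± 0.14 (SD, n = 4) in wild type fat. Its coactivator Ppargc1a differed by -0.03 (SE 0.17), at a mean of 4.07 in transgenic and 4.10 in wild type fat. Both genes were dim, near array medians of 3.99 to 4.04, so their small differences say little. Pparg, the brightest PPAR gene of the list, was named after its value was seen. It read 9.11 ± 0.12 (SD, n = 3) in transgenic and 8.65 ± 0.30 (SD, n = 4) in wild type fat. Its difference was 0.46 (SE 0.17) with overlapping groups, and 0.03 against wild type replicate 2 alone.

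Other known targets of PPAR alpha had a median difference of 0.06, and 0.03 against wild type replicate 2 alone, with 7 of 11 measured genes higher, 0 called, 1 at an unadjusted limma p under 0.05 and groups apart for 0. Slc27a1, a fatty acid transporter, differed by 0.52 (SE 0.17), Cyp4a10, an omega-hydroxylase, by 0.40 (SE 0.19) and Pdk4, the kinase that shuts down pyruvate dehydrogenase, by -0.23 (SE 0.26). Cyp4a10 was dim, at a mean of 2.43 in transgenic and 2.03 in wild type fat. Several other genes of this list also read near or below the array medians of 3.99 to 4.04 in both groups. Differences this near the floor say little. The list also holds bright genes, of which 3 more are given after their values were seen. Cd36 differed by 0.06 (SE 0.09), Angptl4 by 0.10 (SE 0.18) and Plin2 by -0.27 (SE 0.51), all with overlapping groups. The small median of the list is therefore not one of dim genes alone.

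**Figure D3:**
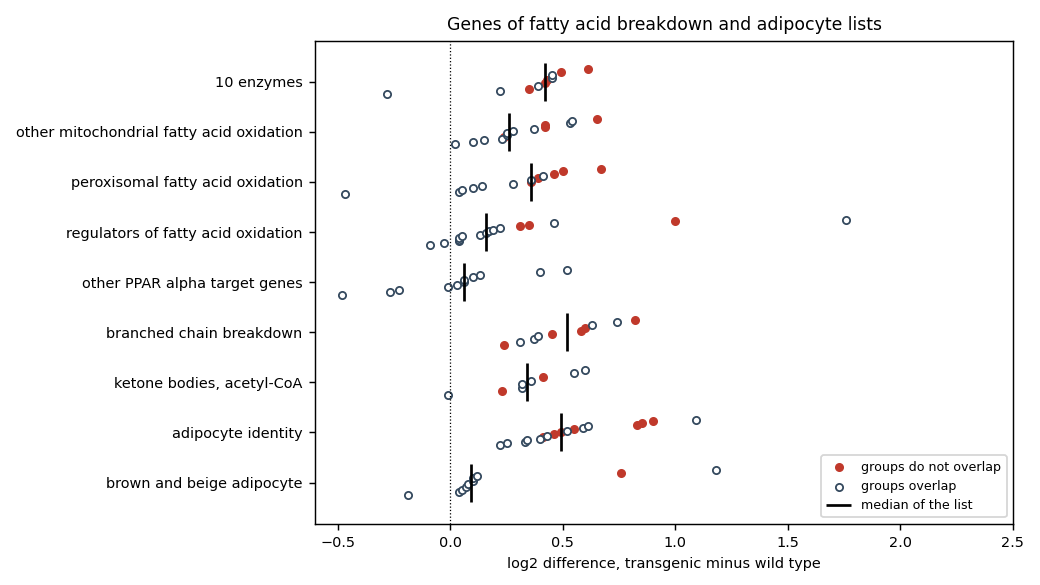
Log2 difference, transgenic minus wild type, of every measured gene of 9 lists; filled points have groups that do not overlap, open points have groups that do, and black lines are list medians. The medians run from 0.06 for the other PPAR alpha targets to 0.52 for branched chain breakdown, with 0.42 for the 10 enzymes. Several of the PPAR alpha targets were dim and others bright, and the branched chain row also holds related acyl-CoA dehydrogenases.

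The 10 enzymes were not alone among mitochondrial pathways. A list of related acyl-CoA dehydrogenases and branched chain amino acid breakdown had 10 of 10 measured genes higher and 0 called. At an unadjusted limma p under 0.05 there were 7, and the median difference was 0.52. The acyl-CoA dehydrogenases of the list also pass electrons through Etfdh. Groups were apart for Bcat2, the mitochondrial aminotransferase (0.82, SE 0.19), Ivd, the isovaleryl-CoA dehydrogenase (0.60, SE 0.17), the ketoacid dehydrogenase subunits Bckdha (0.58, SE 0.17) and Dbt (0.45, SE 0.20), and Acad8 (0.24, SE 0.08). Against wild type replicate 2 alone the median was 0.18 and 9 of 10 were higher. Among genes of ketone bodies and acetyl-CoA use, 7 of 8 measured were higher, 0 were called and 3 had an unadjusted limma p under 0.05, with a median of 0.34, or 0.11 against wild type replicate 2 alone. Mdh2 (0.41, SE 0.10) and Ogdh (0.23, SE 0.10), both of the citric acid cycle, had groups apart, and Bdh1, named because it was the lower one, differed by -0.01.

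Adipocyte identity genes were also higher in transgenic fat and ranked the libraries in a similar way. All 17 measured had a higher transgenic mean, 0 were called, and 11 had an unadjusted limma p under 0.05. The median difference was 0.49, with groups apart for Plin1, Cidec, Pnpla2, Slc2a4, Dgat1, Acvr1c and Lgals12. Adipoq differed by 0.34 (SE 0.15) with overlapping groups. Against wild type replicate 2 alone the median was 0.12 and 14 of 17 were higher. The mean of this list was 10.64, 10.66 and 10.82 in transgenic replicates 1 to 3 and 9.82, 10.56, 10.04 and 10.24 in wild type replicates 1 to 4. The mean of the 10 enzymes was 8.67, 8.83 and 8.98 in transgenic and 8.29, 8.65, 8.52 and 8.45 in wild type libraries. Wild type replicate 1 was the lowest and transgenic replicate 3 the highest library of both.

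The mean difference of the adipocyte list was 0.55, and those of 9 enzymes, Cpt2 excepted, were below it. The difference of Cpt2 was higher by 0.06, that of Hadha lower by 0.33 (-0.33) and that of Cpt1a lower by 0.83 (-0.83). With the adipocyte mean as a covariate, a fit added after the data were seen, the enzymes' median difference was 0.05 and 0 of 10 had an unadjusted limma p under 0.05. In that fit Acads was at 0.32, Cpt2 0.27, Slc25a20 0.25, Hadhb 0.10 and Hadha 0.09. Acadl and Acadvl were at 0.00, Etfdh at -0.03 and Acadm at -0.05. Cpt1a was at -0.06 (SE 0.13), against -0.28 in the main fit. The covariate itself differs between the genotypes, so this fit cannot separate genotype from adipocyte transcripts.

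**Figure D4:**
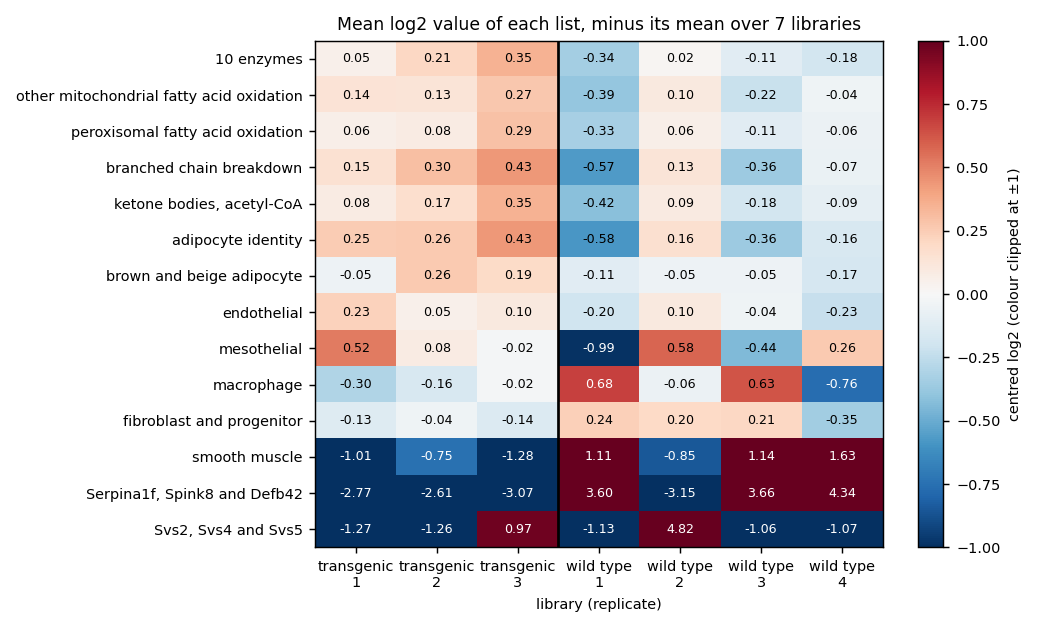
Mean log2 value of each list in each library, minus the list's mean over the 7 libraries, with transgenic libraries left of wild type ones and colours clipped at 1. The row of the 10 enzymes runs from -0.34 in wild type replicate 1 to 0.35 in transgenic replicate 3, and the adipocyte row from -0.58 to 0.43 in the same libraries.

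Markers of other cell types were also read by list. The mean of 10 macrophage markers was 8.25 to 8.53 in transgenic libraries, and 9.23, 8.50, 9.19 and 7.79 in wild type replicates 1 to 4. Of these markers 1 was higher and 9 lower in transgenic fat, with a median difference of -0.24, and -0.14 against wild type replicate 2 alone. Cd163, the higher one, was also the one with groups apart (0.89, SE 0.22), and Cd68, named after its value was seen, differed by -0.94 (SE 0.70) with overlapping groups. The mean of 6 mesothelial markers was 6.56 to 7.10 in transgenic and 5.59 to 7.16 in wild type libraries, lowest in wild type replicate 1. Of these 5 were higher and 1 lower, with a median of 0.62, and -0.38 against wild type replicate 2 alone. Krt19 was the lower one and the one with groups apart. Endothelial markers had 8 of 8 genes higher with a median of 0.19, or 0.08 against wild type replicate 2 alone, and Pecam1 was apart. Smooth muscle had 10 of 10 lower with a median of -1.7, with Acta2, Des and Synm apart, and -0.2 against wild type replicate 2 alone. Skeletal and cardiac muscle markers had 5 of 10 higher, 5 lower and a median of 0.0, with Acta1 apart and lower. In the fibroblast and progenitor list 4 of 9 were higher, 5 were lower and none was apart. Its median was -0.16, and 0 of 9 were higher than in wild type replicate 2. The part of these tissues in the enzymes' differences was not tested beyond the fits given above. Over all probe sets tested, 3.38% were apart and higher and 2.44% apart and lower. Among the bright ones the shares were 9.64% and 5.71%. A single gene apart in lists this short is therefore no result about the list.

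Markers of brown fat, a tissue of high oxidation, were mostly dim. Ucp1, its uncoupling protein, read 2.71 ± 0.10 (SD, n = 3) in transgenic and 2.63 ± 0.05 (SD, n = 4) in wild type fat. Of 10 brown and beige markers 9 had a higher mean, 2 had an unadjusted limma p under 0.05, and the median difference was 0.09, or 0.06 against wild type replicate 2 alone. These 2 were Cox8b, named after its value was seen because it was 1 of the 2, a respiratory chain subunit with overlapping groups (1.18, SE 0.36), and Cidea, a lipid droplet protein. Cidea was apart at 4.81 ± 0.49 (SD, n = 3) in transgenic and 4.05 ± 0.16 (SD, n = 4) in wild type fat. As in the lists above, 1 gene apart of 10 is no result about the list.

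Among themselves 9 of the 10 enzymes had similar but not identical profiles, and Cpt1a was the exception. Transgenic replicate 3 was the highest of the 7 libraries for 9 of 10 enzymes, against 15.2% of all probe sets tested and 24.3% of the bright ones. Wild type replicate 1 was the lowest for 7, against 20.2% of all and 39.5% of the bright ones. Wild type replicate 4 was the lowest library for Slc25a20 and Acads, and the highest wild type library for Cpt2. The root mean square distance of a gene's centred profile from the mean profile of the 10 was 0.050 for Acadl, the closest, between 0.076 and 0.165 for the other higher enzymes, and 0.379 for Cpt1a. Each enzyme is part of that mean, so its distance is small in part by construction. Among 19928 genes outside the 10, the closest by this measure over 7 libraries were Mblac2 (0.033), Cavin3 (0.033), Timm23 (0.036), Ube4a (0.039) and Styx (0.049), against a median of 0.238. Timm23 is a subunit of the mitochondrial import channel and Cavin3 a caveolar coat protein. In all 5 wild type replicate 1 was the lowest and transgenic replicate 3 the highest library.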

How the data were processed

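Total RNA of 7 fat pads was hybridised to Affymetrix Mouse Gene 1.0 ST arrays, 1 colour per array. The authors deposited log2 expression values made with RMA, per the submitters' processing notes; RMA corrects background, normalizes arrays by quantiles and summarises probes, so a shift of all genes in a group would not be seen. For its version, probe set definition and filters: not given in the sources used here. The table held 35556 probe sets, of which 21789 had exactly 1 gene symbol, 1621 several and 12146 none in the platform annotation. All 7 columns were matched to samples, and 0 were unused. Array medians were 3.99 to 4.01 in transgenic and 4.03 to 4.04 in wild type arrays, and at most 15.4% of values were identical in any pair. The number of arrays limits the precision.

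Differences were fitted with limma 3.58.1 (lmFit, eBayes, two-sided) in R 4.3.3 on the values as deposited, with genotype as the only term and Benjamini-Hochberg adjustment over 21789 probe sets. The fit was tested on simulated data. Intervals are 95% and come from the moderated variance. Named genes were the 10 enzymes, Xbp1, Fabp4, Adipoq, the 5 closest profiles, Cpt1b, Etfa, Etfb, Hadh, Acaa2, Ppara, Ppargc1a, Acacb, Pdk4 and Ucp1 as core genes whatever their p, and in each list the genes whose groups did not overlap or else those of smallest p; exceptions are marked in the text, and seminal vesicle genes and Serpina1f were taken from earlier results. The enzymes and lists were chosen with earlier results of these data known. Alternatives were left-out libraries, a replicate block, other normalizations, filters, variance models, array weights, other controls and covariates. Figures used Python 3.11.15, pandas 2.3.3 and matplotlib 3.10.9.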

Additional observations from a re-analysis of the deposited data

Results flagged for a closer look

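In the wild type group of 4, 17 of the 97 genes and list means that the text names held 1 library far from the other 3 by Dixon's ratio (the gap to the nearest library over the range, at the 95% level), where chance gives about 1 in 20. Pparg, Slc22a5, Cd36, Angptl4, Plin2 and the other genes of the lists are not in this count. The named genes include some chosen because a library stood apart. None of the 10 enzymes was among them. Wild type replicate 2 was the low library for Serpina1f (ratio 0.908), Spink8 (0.903), Defb42 (0.889), their mean (0.901) and Acta2 (0.868), and the high one for Svs2 (0.993), Svs4 (0.954), Svs5 (0.935) and the mean of Svs2, Svs4 and Svs5 (0.987). For Ucp1 (0.897) the low library was also wild type replicate 2, at 2.56. Wild type replicate 4 was the low library for Mlycd (0.902) and for the mean of fibroblast and progenitor markers (0.931). Wild type replicate 1 was the low library for Cidea (0.957). Dim epididymal genes were Lcn8 (0.884, high in wild type replicate 4), Lcn9 (1, low in replicate 4), Cst11 (1, low in replicate 2) and Rnase10 (1, low in replicate 1).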

How the results depend on the processing

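Under all 18 alternatives 0 of the 10 enzymes were called, and 178 of 180 differences of single enzymes kept their sign, with limma adjusted p between 0.136 and 1. The exceptions were Acadm (-0.05) and Etfdh (-0.03) with the adipocyte identity covariate, a fit added after the data were seen. The count of 8 enzymes at an unadjusted limma p under 0.05 was 0 when wild type replicate 2 was the sole control, 1 with the epididymal marker covariate and 0 with the adipocyte identity covariate, and ran from 2 to 8 when 1 library was left out. The median difference of 0.42 was 0.18, 0.19 and 0.05 in those 3 fits, and ran from 0.32 to 0.50 with 1 library left out; the cause was not tested. In the first of them the lone control is assumed to vary like the transgenic libraries. Over all genes, limma called 91 of 21789 probe sets (0.418%) without wild type replicate 2 and 3 with the epididymal marker covariate, and 0 under the other 16 alternatives. With the replicate block 7 enzymes had an unadjusted p under 0.05, the median was 0.43 and wild type replicate 4, which has no partner, added nothing to the difference. Deviations of same-numbered samples correlated at -0.139, -0.095 and 0.058, and not every sample correlated best with its own number. These values did not show that the numbers pair the samples. Being deviations within each small group, they cannot exclude a pairing. Shifting arrays to a common median gave 9 enzymes and a median of 0.46. The share of all probe sets at an unadjusted p under 0.05 was not counted under the alternatives, so these counts have no background.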
